A study of Mus musculus with 3 samples.

Results

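The comparison is of transgenic Line 3 with transgenic Line 6, which carry the same named construct, Tg(Ly6a-KDM1A*v2, on the C57BL/6J background. Gene expression was measured in Sca-1-positive, lineage-negative bone marrow cells of mice 10 weeks old, on 1 Affymetrix GeneChip array for Line 3, 1 for Line 6 and 1 for wild type C57BL/6J mice. The 2 line arrays, of 3 in all, are the ones compared. Wild type serves as the reference level, and it also enters the choice of probe set and of the genes kept. The construct name pairs KDM1A, the gene of the histone demethylase LSD1, with Ly6a, the gene of Sca-1, and the cells were sorted on Sca-1 itself. No source used here gives the insertion sites, the sex of the mice or how many mice stand behind each array, and with so few arrays every value is imprecise. With 1 array per line no difference has a replicate check, a standard error or a p-value.

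Independent lines made with 1 construct can differ in where the transgene sits, in how many copies it has and in which cells express it. LSD1 removes methyl groups from histone H3 and works with corepressors such as CoREST and GFI1 to silence genes, and in blood formation it is known for shaping the choice between lineages. The sorted fraction holds stem cells and early progenitors, and also cells that have begun to take the lymphoid, granulocyte, mast cell, erythroid or megakaryocyte paths. An array of the whole fraction therefore reads a mixture, in which fewer cells of a type and less RNA per cell cannot be told apart.

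Differences are Line 3 minus Line 6 on the scale log2(intensity + 16), which understates differences of dim genes, and levels are quoted as deposited intensities. Each gene was read from its brightest probe set by mean intensity over the 3 arrays. Genes that reached the array median on 1 or more arrays were kept, 10866 of 18193. The median difference over these genes was 0.05 and the SD over genes was 0.38. Of the kept genes, 90.3% lay within 1.5-fold. At 2-fold or more, 79 genes were higher in Line 3 than in Line 6 (0.727% of those kept) and 172 were lower (1.58%), 251 in either direction (2.31%). The other scalings changed this balance: higher genes were 31.5% of those called as deposited, 43.3% with quantile normalization, 42.3% with cyclic loess and 58.3% once each array was centred on its median, which moved the median of all kept genes to 0.25. The gene lists below are described by counts and medians beside these shares. A member was present in a count only if it passed the filter. It could do so through the line where it was high, or through wild type alone, as 267 of the kept genes did.

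**Figure D1:**
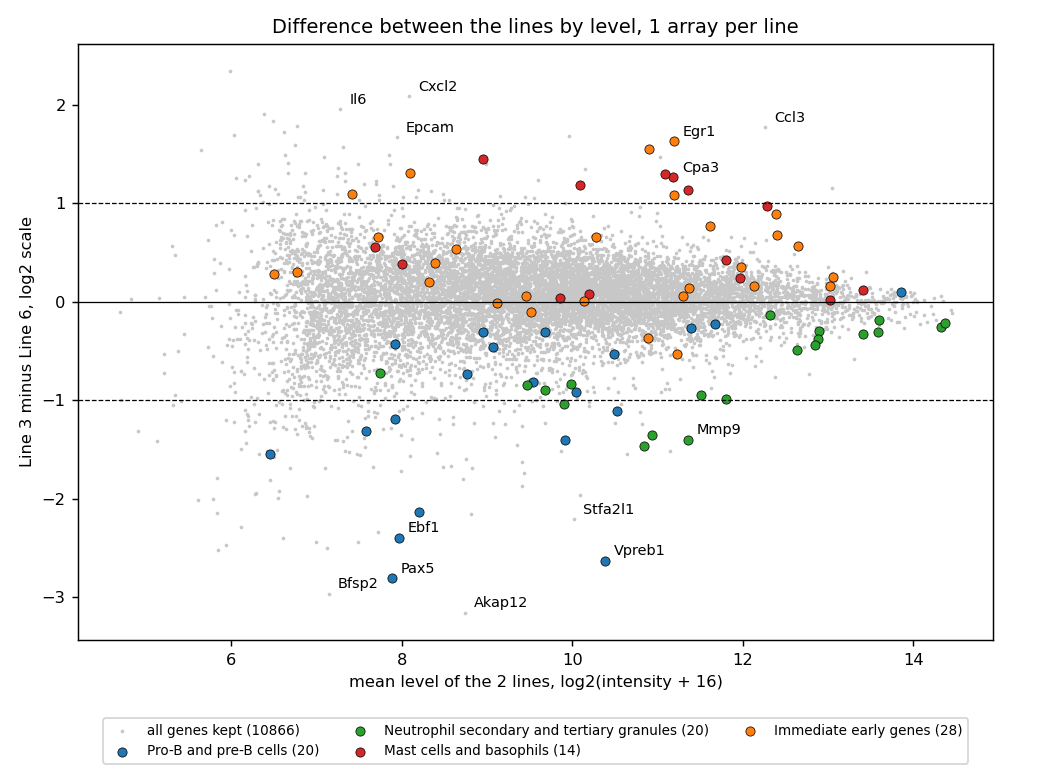
Line 3 minus Line 6 (vertical axis, log2 scale) against the mean level of both lines (horizontal axis, log2(intensity + 16)) for 10866 genes, with members of 4 gene lists in colour and dashed lines at 2-fold. Pro-B and pre-B genes and genes of secondary and tertiary neutrophil granules lie below 0 with 1 exception among 40, while mast cell and basophil genes lie above 0.

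Genes of the early B lineage were higher in Line 6 than in Line 3. Of 20 kept genes on a pro-B and pre-B list of 22, 9 were at least 2-fold lower in Line 3 (against 1.58% of all kept genes), none was 2-fold higher and 11 lay within 2-fold, and the list median was -0.87. The Line 6 median stood 1.08 above wild type and the Line 3 median 0.29 above it. The summed intensity of the 20 genes was 24557 in wild type, against 37186 in Line 6 and 27954 in Line 3. For 4 of the 20, 1 or more arrays lay below their own median. These were Pax5, Ebf1, Ms4a1 and Blk, all among the 9 past 2-fold, and Ms4a1 passed the filter only through Line 6. The count of genes below 0 was 19 of 20 on all 4 scalings, and the count past 2-fold was 9, or 7 after centring.

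Transcription factors of the B cell programme were among the genes furthest apart. Pax5, which commits progenitors to the B lineage, had intensities of 128 in wild type, against 609.5 in Line 6 and 73.4 in Line 3 (difference -2.81). Ebf1, which acts upstream of Pax5, had 148, 556 and 92.8 in the same order (-2.39). On these brightest probe sets Line 3 was the lowest of the 3 arrays for both factors and Line 6 the highest. A further 3 Ebf1 probe sets passed the filter and gave -1.57, -1.94 and -2.40. On these, wild type (60.8, 81.6 and 63.0) lay below Line 3 (80.1, 97.8 and 64.2). Lef1, an HMG-box factor of the Wnt pathway that is active in pro-B cells, had 251, 933 and 197 (-2.15), and its second probe set gave -2.02. Bach2, a repressor of myeloid genes in lymphoid progenitors, had 248, 1179 and 370.4 (-1.63), with -1.67 and -1.90 on the other probe sets. Line 3 stayed above wild type for Bach2, unlike for Pax5, Lef1 and the brightest Ebf1 probe set. Spib, an ETS factor of B cells and plasmacytoid dendritic cells, had 551, 1551 and 574 (-1.41), and Line 3 was within 1.2-fold of wild type.

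Components of the pre-B cell receptor followed the same order but not to the same extent. Vpreb1, a part of the surrogate light chain, had 616, 3303 and 521 (-2.63), and Vpreb3, a related chaperone, had 119, 600.2 and 124 (-2.14). Igll1, the lambda 5 partner of Vpreb1 in the surrogate light chain, had 846, 1429 and 749 (-0.92), inside the 2-fold limit. Line 3 therefore read close to wild type for all 3 genes. The signalling chains differed less, with Cd79a at 780.3, 2137 and 983 (-1.11) and Cd79b at 747, 1717 and 1181 (-0.53). Ighm, the mu heavy chain, was the 1 kept member above 0, at 12852, 14260.2 and 15299 (0.10). Later B cell genes were dim: Ms4a1, which encodes CD20, had 83.5, 134 and 35.4 (-1.54), and the kinase gene Blk had 51.2, 284 and 105 (-1.31). Bank1, a B cell adaptor, differed by -1.19.

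Genes of lymphoid priming differed to unequal extents. Rag1 and Rag2, which cut antigen receptor genes, had 105, 666 and 198 (-1.67) and 62.7, 346 and 144 (-1.18) in wild type, Line 6 and Line 3. Both lines lay above wild type for both genes, and Line 6 lay higher. Dntt, the terminal transferase that adds bases during the same recombination, had 1539, 4305 and 3424 (-0.33), and Il7r, the interleukin 7 receptor chain, had 1059, 2034 and 1733 (-0.23). Of 20 kept lymphoid priming genes, 4 were 2-fold lower in Line 3 (Lef1, Rag1, Bach2 and Rag2), 1 was 2-fold higher (Rgs1, a regulator of G protein signalling, 1.47) and 15 lay within 2-fold, with a median of -0.16 that became 0.04 after centring on array medians. The receptor gene Flt3, which marks multipotent progenitors with lymphoid potential, lay on the other side, at 570, 629 and 1152 (0.86). In the plasmacytoid and conventional dendritic cell list, 1 of 13 kept genes passed 2-fold, against 2.31% of all kept genes. This was Siglech, a surface lectin of plasmacytoid dendritic cells, at 1195, 2164 and 1048 (-1.03).

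**Figure D2:**
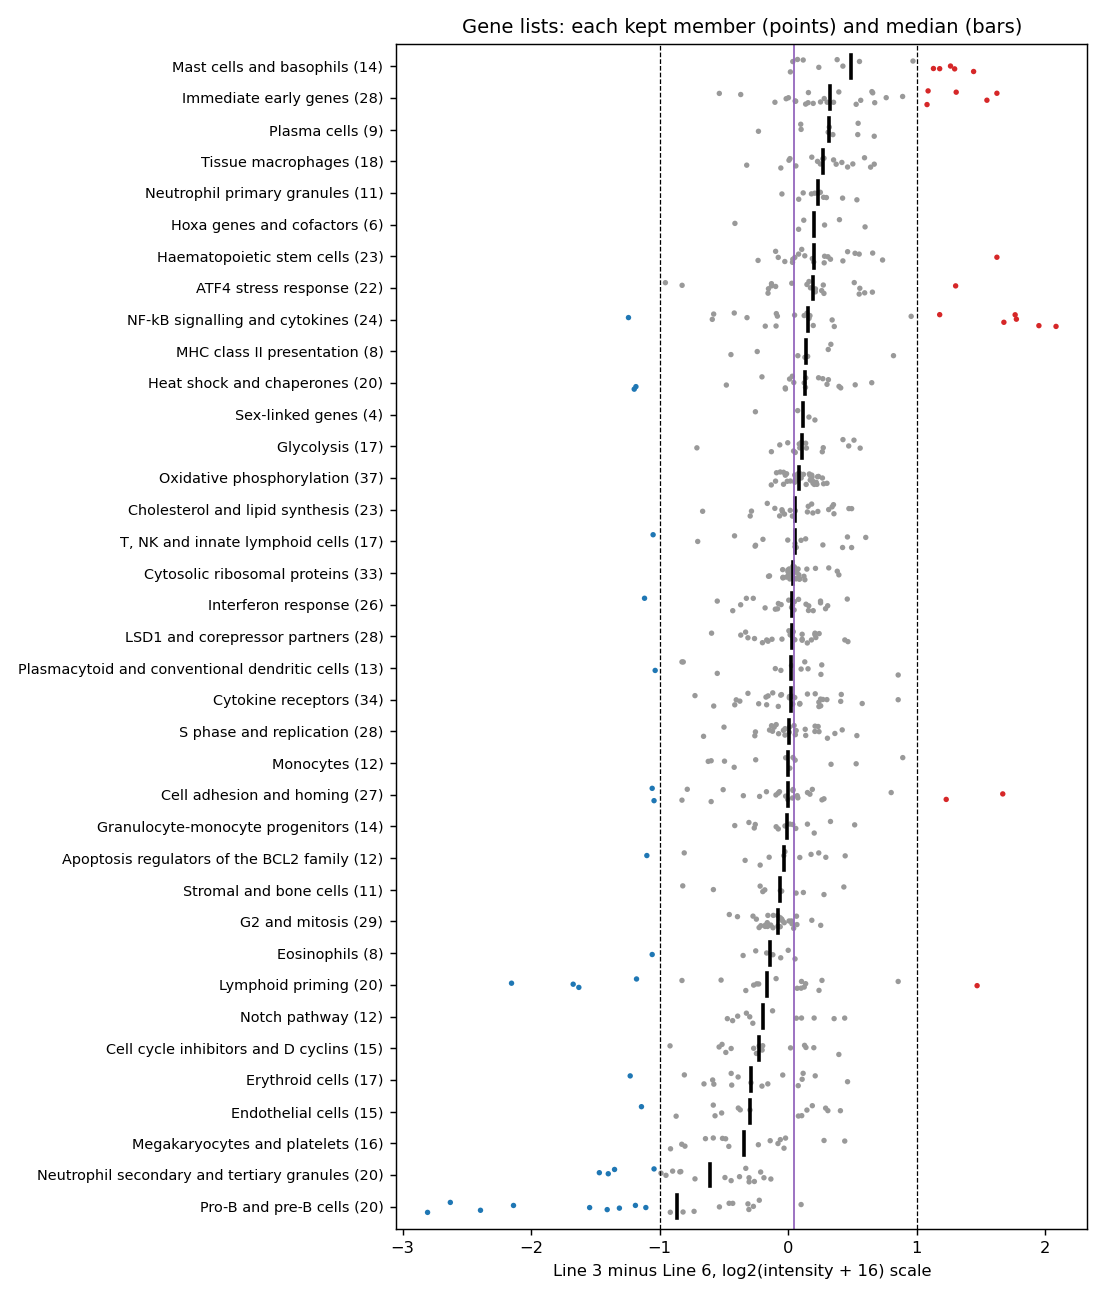
Line 3 minus Line 6 (horizontal axis, log2(intensity + 16) scale) for every kept member of 37 gene lists, 1 point per gene, with the list median as a black bar, the median of all kept genes (0.05) as a purple line and 2-fold limits dashed. Blue points are at least 2-fold lower and red points at least 2-fold higher in Line 3. The pro-B and pre-B list has the lowest median (-0.87) and the mast cell and basophil list the highest (0.49).

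Several other genes that led on the Line 6 side were on none of the lists. Akap12, a scaffold that anchors protein kinases, was furthest apart of all at 8.94-fold. Bfsp2, a filament protein known from the lens, had 27.9 in wild type, against 379.9 in Line 6 and 34.7 in Line 3 (-2.97). Cecr2, a bromodomain protein of chromatin remodelling, had 114.5, 399.5 and 60.8 (-2.44), and Cplx2, a complexin that regulates vesicle release, differed by -2.50, each with 1 further kept probe set past 2-fold in the same direction. In these genes the Line 6 array was the high one, with Line 3 close to wild type or below it. For Aoc3, an amine oxidase of vascular adhesion, and Retn, the resistin gene, the Line 3 intensities of 15.3 and 9.92 were below the pseudocount of 16. Their differences (-2.29 and -2.47) depended on it, reaching -1.34 and -1.38 with a pseudocount of 64. Myl4, a myosin light chain gene, and Rsph9, a gene of ciliary radial spokes, had 1288 and 168 in Line 6 against 340.4 and 32.4 in Line 3, both within 1.2-fold of wild type in Line 3.

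Genes of mature neutrophil granules were lower in Line 3 than in Line 6, and both lines read below wild type. Neutrophils fill their granules in waves, first the primary (azurophil) granules in promyelocytes and later the secondary (specific) and tertiary (gelatinase) granules. All 20 kept members of the secondary and tertiary list lay below 0 on the deposited scale (18 of 20 after centring), with a median of -0.61. At 2-fold, 4 of the 20 passed, against 1.58% of all genes, and 16 lay inside it. The summed intensity of the list was 221538 in wild type, against 146973 in Line 6 and 111655 in Line 3. Primary granule genes did not share this direction: 10 of 11 lay above 0, none passed 2-fold, and the median was 0.23.

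Fpr2, a receptor for formylated bacterial peptides, had 8712 in wild type, against 3029 in Line 6 and 1084 in Line 3 (-1.47). Mmp9, the gelatinase of tertiary granules, had 9847, 4243 and 1598 (-1.40), and its second probe set gave -1.51. Mmp8, the collagenase of secondary granules, had 7586, 3111 and 1210.1 (-1.35), and Cxcr2, the chemokine receptor that draws neutrophils out of the marrow, had 3499.5, 1353 and 648 (-1.04). Each of these genes stepped down from wild type to Line 6 and again to Line 3. The brightest members moved little, with Ltf, the lactoferrin gene, at -0.30, S100a8 at -0.26 and S100a9 at -0.21. Among primary granule genes, Mpo, myeloperoxidase, had 15770.2, 15952 and 16895 (0.08), Elane, neutrophil elastase, had 9377, 9082 and 10689 (0.23), and Cst7, a cystatin, had 2209.6, 2343 and 3404 (0.54).

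Further genes led on the same side without being on a granule list. Bst1, the ectoenzyme CD157, had 2207, 588 and 111 (-2.25), and a second probe set was also past 2-fold. Stfa2l1, of the stefin A family of protease inhibitors, had 7563, 2216 and 467 (-2.21), although the members of that family are so alike that probe sets may read several of them. Steap4, a metalloreductase, had 848, 209 and 26.5 (-2.40), Gpat3, an acyltransferase of lipid synthesis, had 392.5, 281 and 38.9 (-2.43), and Ankrd33b had 616, 459 and 77.6 (-2.34) with 2 further probe sets past 2-fold. Wild type was the highest of the 3 arrays for all 5 genes. Lists of granulocyte-monocyte progenitors (14 kept, median -0.01), monocytes (12 kept, median -0.0026) and tissue macrophages (18 kept, median 0.27) had no member past 2-fold, against 2.31% of all kept genes. The medians of the progenitor and monocyte lists became 0.20 after centring.

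The Line 3 array read higher than the Line 6 array for genes of mast cells and basophils. All 14 kept members of a list of 24 lay above 0 (13 of 14 after cyclic loess), 5 were at least 2-fold higher (against 0.727% of all genes), none was 2-fold lower and 9 lay inside 2-fold, with a median of 0.49. Over the alternatives the median ran from 0.10 with no filter, which adds 8 dim members, to 0.76. Fcer1a, the IgE-binding chain of the high-affinity IgE receptor, had 1281 in wild type, against 1373 in Line 6 and 3397 in Line 3 (1.30). Cpa3, the mast cell carboxypeptidase, had 1281, 1480.4 and 3579 (1.26). Ms4a2, which encodes that receptor's beta chain, differed by 1.13, and by 1.26 on its second probe set. In these genes Line 3 was the high array, and Line 6 stood within 1.2-fold of wild type for Fcer1a and Cpa3. Cyp11a1, the side-chain cleavage enzyme of steroid synthesis, had 269, 284 and 799.8 (1.44). Csf1, which encodes a macrophage growth factor, had 792, 710.3 and 1630 (1.18), with 1 of 3 further probe sets past 2-fold, all 3 in the same direction.

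The other kept members lay inside 2-fold. Mcpt8, a protease used to mark basophils, had 2778, 3529 and 6939 (0.97), just inside 2-fold. The gamma chain gene Fcer1g (0.02), the stem cell factor receptor Kit (0.04), the amine transporter Slc18a2 (0.07) and the histidine decarboxylase gene Hdc (0.24) differed little, and Gata2, a transcription factor of stem cells and mast cells, differed by 0.43. Genes of mature tissue mast cells were below the filter: Mcpt1, Mcpt2 and Tpsab1 stayed under an intensity of 16 on all 3 arrays, and Cma1 (20.9, 104 and 33.9) and Tpsb2 (27.1, 53.0 and 7.61) were lower in Line 3 than in Line 6. Of 8 kept eosinophil genes, 6 lay below 0, with a median of -0.14 that became 0.06 after centring, and Ccr3, the eotaxin receptor, had 736, 1677 and 797 (-1.06). Neutrophil secondary and tertiary granule genes, as given above, were lower on the same Line 3 array, and their part in the mast cell result was not tested.

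Upstream sequences are shown for the 3 mast cell genes past 2-fold whose promoters hold a GATA motif. GATA factors bind the letters GATA, and the search used the longer form AGATAA on both strands of the 250 bases before each RefSeq gene start (build GRCm38.p6). All 14 kept list members had a promoter in the RefSeq table, and 4 held the motif (28.6%), against 11.4% of 27025 genes. Of the 5 genes past 2-fold, 3 held it, and the other holder was Slc18a2 (difference 0.07). The 250 bases are written 5′ to 3′ on the gene's own strand, with the motif or its reverse complement in capitals.
Cpa3 (chr3:20242182-20242431, minus strand): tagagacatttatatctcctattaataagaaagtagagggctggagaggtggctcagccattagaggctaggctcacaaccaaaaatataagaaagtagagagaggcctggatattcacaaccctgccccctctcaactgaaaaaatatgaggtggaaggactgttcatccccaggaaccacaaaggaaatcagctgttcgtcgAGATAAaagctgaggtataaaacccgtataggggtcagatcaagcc
Fcer1a (chr1:173227230-173227479, minus strand): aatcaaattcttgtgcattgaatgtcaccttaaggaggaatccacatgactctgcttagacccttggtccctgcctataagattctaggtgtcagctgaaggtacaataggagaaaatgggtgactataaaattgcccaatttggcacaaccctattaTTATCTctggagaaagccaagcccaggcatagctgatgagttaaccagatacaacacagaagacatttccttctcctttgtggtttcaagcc
Ms4a2 (chr19:11623720-11623969, minus strand): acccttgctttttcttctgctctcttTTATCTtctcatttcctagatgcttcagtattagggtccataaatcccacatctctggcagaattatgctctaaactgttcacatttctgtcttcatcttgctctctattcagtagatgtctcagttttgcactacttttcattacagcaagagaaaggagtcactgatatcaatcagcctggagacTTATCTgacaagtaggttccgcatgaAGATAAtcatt

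The Cpa3 motif begins 46 bases and the Fcer1a motif 92 bases before the start, and the Ms4a2 window holds 3 matches. A match describes letters and is not a binding site. The same search was made for the EBF motif (TCCC, any 2 bases, GGGA) in the pro-B and pre-B list, where 1 of 16 promoters held it (Cd22, difference -0.43) against 0.914% of all genes. For the CRE motif TGACGTCA in the immediate early list, 4 of 24 promoters held it (Btg2, Dusp1, Maff and Ppp1r15a, none past 2-fold) against 1.77% of all genes. In neither of these lists did a gene past 2-fold hold the motif in its window.

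Immediate early genes, whose transcripts build up within minutes of a stimulus, were higher in Line 3 than in Line 6. Of 28 kept genes, 5 stood at least 2-fold higher (against 0.727% of all kept genes), none was 2-fold lower and 23 lay inside 2-fold, with 24 above 0 and a median of 0.33. Egr1, a zinc finger factor of the first wave, had 3690.4 in wild type, against 1313 in Line 6 and 4086 in Line 3 (1.63), and the related Egr2 had 497, 158 and 415 (1.31). Line 6 was the low array in both, and Line 3 lay within 1.2-fold of wild type. Ier3, a survival gene of the same response, had 2268, 1098 and 3242 (1.55), and Fosb, an AP-1 subunit, had 2581, 1595 and 3393 (1.08). Atf3, a stress-induced repressor, had 609, 101 and 233 (1.09), where wild type stayed the highest. Some members of the same response were alike in the lines, among them Klf2 (-0.10), Ier5 (0.14), Ppp1r15a (0.00) and Dusp2 (-0.01).

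Chemokine and cytokine genes were among the leading differences on the Line 3 side. In the list of NF-kB signalling and cytokines, 6 of 24 kept genes passed 2-fold on the higher side (against 0.727% of all kept genes), 1 was lower (against 1.58%) and 17 lay inside 2-fold, with a median of 0.16. Cxcl2, a neutrophil-attracting chemokine, had 3512, 116 and 543 (2.09), and Ptgs2, the inducible prostaglandin synthase, had 782, 43.1 and 187 (1.78). Both lines were below wild type for these, and Line 6 was furthest below. Ccl3 and Ccl4, inflammatory chemokines, had 4638, 2635 and 9008 (1.77) and 768, 542 and 1771 (1.68), and Line 3 was the highest array and Line 6 the lowest. Il6, a cytokine of the acute phase, had 113.6, 62.8 and 289 (1.95). The other member past 2-fold on the higher side was Csf1 (1.18), which is also counted in the mast cell and basophil list. Il1b went the other way, at 5778, 898 and 370.4 (-1.24). So did Il1f9 (5001, 2141 and 536, difference -1.97) and Il1rn (2465, 866 and 324, difference -1.38). Neither is on the list, and both were named after their values were seen. The signalling genes themselves differed less, with the inhibitor Nfkbia at 0.36, Tnfaip3 (A20) at 0.96, Rela at 0.15 and Nfkb2 at -0.09. Secondary and tertiary granule genes were lower and mast cell genes higher on the same Line 3 array, and their part in these differences was not tested.

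**Figure D3:**
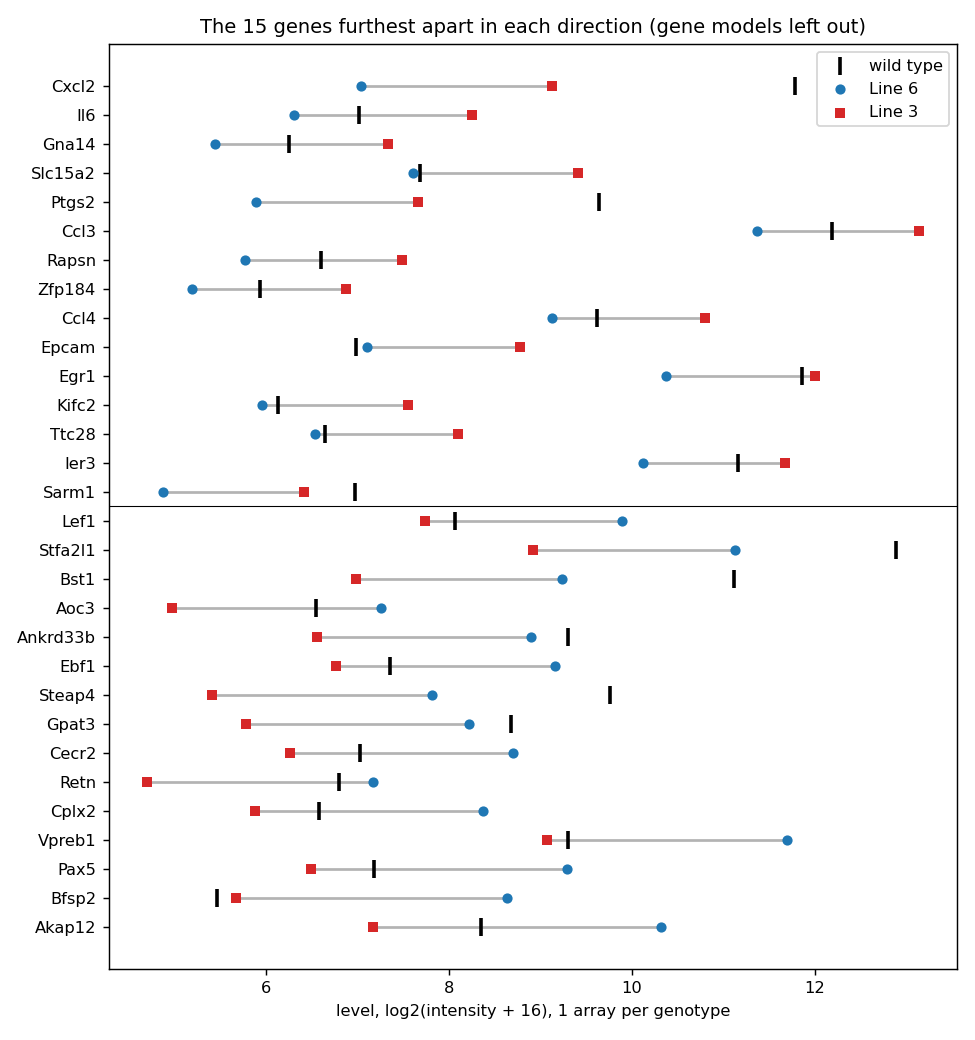
Level on each array (horizontal axis, log2(intensity + 16)) of the 15 genes furthest apart in each direction (gene models and accession-like symbols left out), with Line 6 as blue circles, Line 3 as red squares and wild type as black ticks, 1 array each. Among the lower 15, wild type lies above both lines for Gpat3, Steap4, Ankrd33b, Bst1 and Stfa2l1. For Bfsp2 and Vpreb1 it lies next to Line 3.

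The remaining leading genes on the Line 3 side included transporters, adhesion molecules and signalling proteins. Slc15a2, a peptide transporter, had 189, 179 and 663 (1.80) on the probe set kept. Its other probe sets were below the filter and gave 0.52 and 0.42. Epcam, an epithelial adhesion molecule, had 110, 122 and 422 (1.67). Cdh1, the E-cadherin gene, had 315, 489.7 and 1171 (1.23), and Cldn7, a claudin that partners Epcam and was named after its value was seen, had 22.9, 43.0 and 149 (1.49). These 3 epithelial adhesion genes were highest in Line 3, but the cell adhesion and homing list, which holds Epcam and Cdh1, showed no common direction. Of its 27 kept genes, 2 were 2-fold higher (against 0.727% of all kept genes) and 2 were lower, Ccr3 and Cxcr2 (against 1.58%). Above 0 lay 13 and below it 14, with a median of -0.0028. Gna14, a G protein subunit, had 59.8, 27.2 and 145 (1.90), while Rapsn, Zfp184, Kifc2, Ttc28 and Sarm1 differed by 1.54 to 1.72 with Line 6 intensities of 13.2 to 76.3, all below that array's median of 116. Of these, Sarm1 (0.79), Zfp184 (0.97) and Ttc28 (0.51) each fell inside 2-fold in 1 alternative.

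Red cell and platelet genes mostly read lower in Line 3 than in Line 6, nearly all inside 2-fold. Of 17 kept erythroid genes, 12 lay below 0 (10 after centring), with a median of -0.29, and 1 passed 2-fold (against 2.31% of all kept genes). This was Alas2, the first enzyme of haem synthesis in red cells, at 2782, 2198 and 928 (-1.23). Among late erythroid genes the membrane skeleton gene Epb42 differed by -0.81, Hemgn by -0.65 and the band 3 gene Slc4a1 by -0.58. Klf1, the early erythroid factor, differed by 0.12, Epor by 0.21 and Car1 by 0.46. Of 16 kept megakaryocyte and platelet genes, 14 lay below 0 (9 after centring) and none passed 2-fold, with a median of -0.35. Ppbp (-0.92), Gp5 (-0.83), Clec1b (-0.80) and Pf4 (-0.64), which are products of late megakaryocytes, were furthest down, and Itga2b, also present on progenitors, was at 0.44.

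Lists of stem cell identity, proliferation and core metabolism showed few genes apart. Of 23 kept haematopoietic stem cell genes, 19 lay above 0 with a median of 0.20, and the 1 past 2-fold was Egr1, which is also an immediate early gene. Hlf, a stem cell transcription factor, had 367, 607 and 1021 (0.74), while Meis1 (0.08), Mecom (0.13), Prdm16 (0.03) and Hoxa9 (0.28) were close in the lines, and the second Hoxa9 probe set gave -0.08. No gene passed 2-fold among 28 of S phase and replication (median 0.01), 29 of G2 and mitosis (-0.08), 33 ribosomal proteins (0.04), 37 of oxidative phosphorylation (0.09), 17 of glycolysis (0.11), 34 cytokine receptors (0.03) or 12 of the Notch pathway (-0.20). Over all kept genes 2.31% passed 2-fold, so a list of this size would hold few or none at that share. The S phase, G2 and mitosis, cytokine receptor and Notch medians each crossed 0 under at least 1 alternative. In the heat shock list, the inducible chaperones Hspa1a (50.3, 152 and 57.2) and Hspa1b (87.5, 403 and 168) were past 2-fold lower in Line 3, by -1.20 and -1.18, and these 2 genes are near-identical copies whose probe sets may not separate them. Their usual partners Dnajb1 (-0.20), Hsph1 (0.30) and Hspa8 (-0.02) were inside 2-fold.

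In several other lists a single gene passed 2-fold, as 2.31% of all kept genes did. At that share a list of this size holds few such genes or none, so a count of 1 or none says little about its members. Rsad2, the antiviral enzyme viperin, had 2313, 2599 and 1189 in wild type, Line 6 and Line 3 (-1.12) among 26 kept interferon response genes, whose median was 0.03. Trib3, a pseudokinase of the stress response, had 144, 48.4 and 143 (1.30) among 22 kept ATF4 genes (median 0.19). Cd3e, a chain of the T cell receptor complex, differed by -1.05 among 17 kept genes of T, NK and innate lymphoid cells (0.05). Bok, a BCL2 family member, had 108, 89.0 and 33.0 (-1.10) among 12 kept (-0.03, and 0.17 at the highest of the alternatives). Aplnr, the apelin receptor of endothelium, had 225, 92.0 and 33.0 (-1.14) among 15 kept endothelial genes, whose median of -0.30 reached 0.23 in the alternatives. For Bok and Aplnr the intensities of both lines were below their array medians, so these genes passed the filter only through wild type. Each stayed past 2-fold in 4 of the 8 alternatives that kept it, and their differences came to -0.66 and -0.69 at the weakest. No gene passed 2-fold among 9 kept plasma cell genes (median 0.32), 8 of MHC class II presentation (0.14), 6 Hoxa genes and cofactors (0.20), 11 stromal and bone genes (-0.06), 23 of cholesterol and lipid synthesis (0.06) or 15 cell cycle inhibitors and D cyclins (-0.22). The Hoxa median ran down to -0.05 and the stromal median up to 0.14 in the alternatives.

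LSD1 and its partners lay inside 2-fold between the lines, and the 2 Kdm1a probe sets gave unequal differences. The brighter Kdm1a probe set had 2104 in wild type, against 2575 in Line 6 and 2979 in Line 3 (0.21), and the other had 916, 911 and 1482 (0.69). No source used here says whether these mouse probe sets read the transgene. None of 28 kept genes of the corepressor complexes passed 2-fold, against 2.31% of all kept genes, and their median was 0.03. Sfmbt1, a methyl-lysine reader found with LSD1, was furthest down on its brightest probe set (-0.60), but only 1 of its 3 other kept probe sets ran the same way and the median of its probe sets gave 0.29. Mbd3, of the NuRD complex, was furthest up (0.47). Rcor1, the CoREST gene, differed by -0.16, Gfi1 by 0.18 and Gfi1b by 0.11.

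The wild type array placed the differences between the lines. Of the 79 genes higher in Line 3, wild type lay within 1.2-fold of Line 6 for 22 and within 1.2-fold of Line 3 for 7. It lay between the lines for 30, above both for 7 and below both for 13. Of the 172 lower genes, wild type lay above both lines for 70, between them for 36, near Line 6 for 28, near Line 3 for 23 and below both for 15. Both lines were below their array medians for 22 of the 172 and for 3 of the 79. These genes passed the filter only through a higher wild type value, so their wild type positions were partly set by that selection. The 70 include Fpr2, Mmp9, Mmp8 and Cxcr2, and their median differences from wild type were -1.21 in Line 6 and -2.62 in Line 3. Over all kept genes, wild type was within 1.2-fold of Line 6 in 54.2% and of Line 3 in 41.4%.

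**Figure D4:**
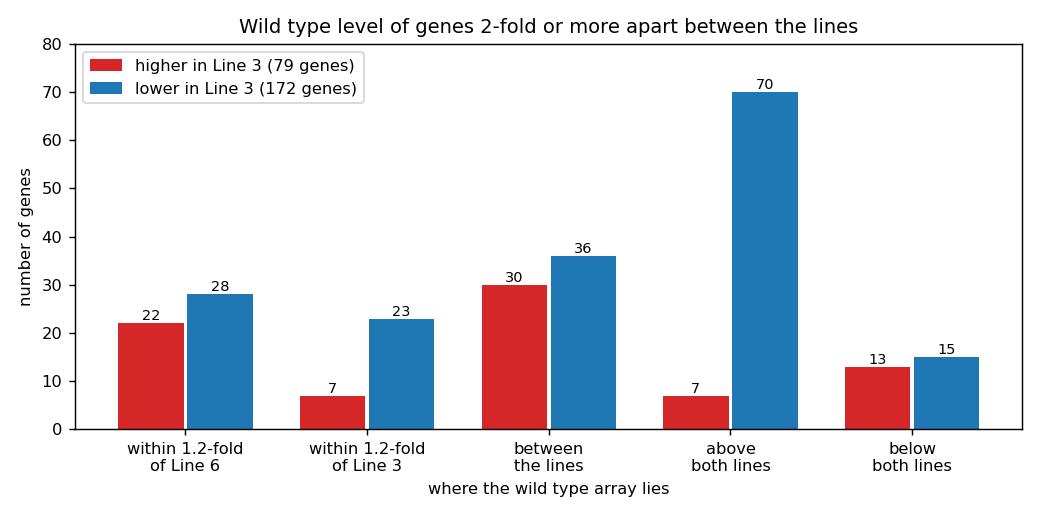
Number of genes (vertical axis) at least 2-fold higher (red, 79 genes) or lower (blue, 172 genes) in Line 3 than in Line 6, by where the single wild type array lies. The tallest bar is the 70 genes that were highest in wild type, lower in Line 6 and lower again in Line 3. Of the 172 lower genes, 22 passed the filter only through wild type.

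Genes for which only 1 line left the wild type level can be read from the 2 near classes. On the Line 3 side, Slc15a2, Epcam, Kifc2, Ttc28 and Eid2 (72.1, 65.4 and 209, difference 1.47) led the genes higher in Line 3 with Line 6 near wild type. Sowaha (260.3, 229.9 and 60.4), Crtac1 (163, 168 and 41.4), Chadl (141.5, 140.8 and 36.6), Wnt8b (150.4, 140.3 and 38.9) and the neurotrophin receptor Ntrk2 (99.1, 103 and 27.9) led those lower in Line 3, by -1.69 to -1.44. Wnt8b and Ntrk2 came inside 2-fold in 1 alternative each (-0.99 and -0.86). On the Line 6 side, Bfsp2, Vpreb1, Vpreb3, Rsph9 and Myl4 led the genes higher in Line 6 with Line 3 near wild type. Egr1, Egr2, Trib3, Slc25a29 and Klhdc4 led those lower in Line 6. Slc25a29, a mitochondrial carrier, rested on 1 probe set, as only 1 of its 2 other kept probe sets ran the same way.

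Dim genes carried many of the calls. By mean level of the lines, 14.6% of the genes at or below 7 on the log2(intensity + 16) scale were 2-fold apart, against 0.482% of those above 11. In both lines the intensity was at or above 200 for 23 of the 79 higher genes and 46 of the 172 lower ones. Of the other probe sets of the called genes that passed the filter, 19 of 22 ran in the same direction for higher genes, 5 of them past 2-fold, and 44 of 45 for lower genes, 23 past 2-fold. Such probe sets read the same RNA and check the probe, not the sample. On the higher side, Klhdc4, Lmln (1.01) and Lamb1 (1.03) lay just past the limit, and Trim68, Gaa (0.99) and Mcpt8 (0.97) just short of it. On the lower side, Ccdc180, Foxd4 and Acta2 lay just past it, and Amer2, Sdc4 and Chst3 (-0.99) just short of it.

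Probe sets with no gene in the annotation were lower in Line 3 as a class. Of 2962 that passed the filter, 235 were at least 2-fold lower in Line 3 (7.93%) and 8 were higher (0.270%), with a median of -0.30. Among the 20784 probe sets with 1 gene, 359 were lower (1.73%) and 122 higher (0.587%), and the median was 0.01. The class with no gene was dimmer (median level 7.75 against 9.16 on the log2(intensity + 16) scale), but at levels from 8 to 9 its median was still -0.35 against 0.01. Its median difference from wild type was 0.25 in Line 6 and -0.01 in Line 3, but among its 569 dimmest members, at or below a level of 7, these were 0.07 and -0.30. The class was lower in Line 3 under each other scaling as well, with medians of -0.21 (quantile normalization), -0.23 (cyclic loess) and -0.10 (centring). The dim genes 2-fold lower in Line 3 moved in the same direction as this class, and its part in them was not tested.

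**Figure D5:**
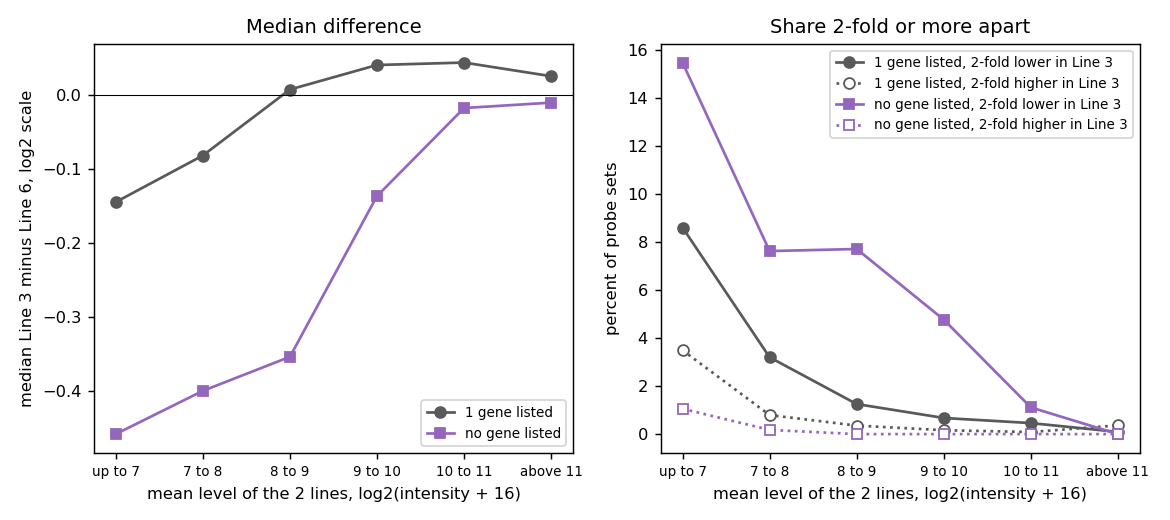
Probe sets that passed the filter, split by whether the annotation pairs them with 1 gene (grey) or none (purple), by mean level of the lines (horizontal axis, log2(intensity + 16)). The left panel gives the median of Line 3 minus Line 6 on the log2 scale and the right panel the percent 2-fold or more apart. Below a level of 9, the median is -0.46 to -0.35 for probe sets with no gene and -0.14 to 0.01 for those with 1.

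Facts of the arrays bear on all of these values. The median intensity was 116 in Line 6, 99.0 in Line 3 and 96.2 in wild type, and 22.5% to 24.4% of the probe sets of an array lay below 16. Of the markers that fit the sort, Kit, Cd34, Flt3, Meis1 and Procr were kept, with intensities of 899, 1838, 629, 344 and 130 in Line 6 and 923, 2315, 1152, 365 and 194 in Line 3, while the annotation used pairs none of the probe sets with Ly6a. Of the lineage markers, Itgam (1088 and 713), Adgre1 (565 and 448), Cd3e (292.5 and 133, difference -1.05) and Cd4 (166 and 180) were above the array medians in both lines, and Cd8a (147 and 84.2) and Ms4a1 in Line 6 alone. Sex-linked genes were similar in the lines on their brightest probe sets, with Xist at 6152 and 5155 (-0.25) and Eif2s3y at 978 and 1031 (0.07). Wild type, at 2729 and 2325, was apart from both lines. On the dimmer Xist probe sets wild type had 1006 and 674, against 3923 and 3078 in Line 6 and 4090 and 2774 in Line 3. The part of sex in the differences from wild type was not tested. Between the lines, the dimmer kept probe sets gave 0.06 and -0.15 for Xist, -0.45 for Eif2s3y and -0.52 and -0.11 for Kdm5d.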

How the data were processed

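The authors deposited linear intensities, a single value for each probe set on each array. Their summary method, software and scaling are not named in the sources used here. A mean trimmed by 2% at each end was 497 on all 3 arrays, so the values had been scaled before deposit. Per the labels, RNA came from a Trizol extraction and was amplified (Ovation Pico WTA) before biotin labelling. Amplification can change the balance between dim transcripts, and no detection calls came with the values.

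The platform annotation gave 1 gene symbol to 34945 of 45037 probe sets and several to 932, and it did not list 9160. Entrez identifiers matched 34741 of the single-symbol probe sets to RefSeq (GRCm38.p6), and 204 kept the annotation's symbol. Intensities were transformed as log2(intensity + 16), and a gene was called at 2-fold or more. Promoter sequences came from the RefSeq table of the same build, and the build of the array annotation is not named, so the only coordinates printed are those of the RefSeq promoter windows.

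Named were Kdm1a, the first 15 genes per direction, the first 5 per direction in each class near wild type, up to 8 list members past 2-fold or else the first 2, sex-linked genes and 3 genes on each side of the limit. Gene models and accession-like symbols, 30 of the 251 called genes, were not named. Further list members are named for their role, after their values were seen. The comparison, the members and the 37 lists were chosen with earlier results of these data known and are not independent evidence. The procedure was tested on simulated data. Alternatives were quantile normalization, centring, cyclic loess, 4 other filters, 2 other ways to pick probe sets, pseudocounts of 1 and 64 and limits of 1.5-fold and 3-fold. Choosing the probe set by mean log2 value was added after seeing the data. Computation used R 4.3.3 with limma 3.58.1, and Python 3.11.15 with pandas 2.3.3, numpy 2.4.6 and matplotlib 3.10.9.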

Additional observations from a re-analysis of the deposited data

Results flagged for a closer look

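Akap12 was the 1 kept gene that lay 2-fold or more from wild type in opposite directions in the lines, at 1.98 in Line 6 and -1.18 in Line 3 on the log2(intensity + 16) scale. With a single array per line, the difference was not tested. It rests on 1 probe set, with intensities of 309 (wild type), 1264 (Line 6) and 127 (Line 3), and over the alternatives Line 3 minus Line 6 ran from -3.30 to -2.80. Outside the named genes, 388 of 2962 kept probe sets with no gene listed exceeded wild type at least 2-fold in Line 6. A further 52 were as far below it, and the Line 3 counts were 109 above and 145 below. Of 20784 kept probe sets with 1 gene listed, 536 were above and 440 below in Line 6, against 656 and 883 in Line 3.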

How the results depend on the processing

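The counts of genes 2-fold apart, 79 higher and 172 lower in Line 3, moved with the filter, the pseudocount and the limit: 288 and 564 with no filter, 23 and 70 with the filter at percentile 75, 51 and 108 with the filter on the mean of the line arrays, 33 and 87 with a pseudocount of 64, 476 and 576 at 1.5-fold and 14 and 40 at 3-fold. Centring on array medians gave 154 and 110, and it turned the balance to the higher side. Quantile normalization (106 and 139), cyclic loess (105 and 143), the median of probe sets (55 and 155), plain _at probe sets (67 and 171), a pseudocount of 1 (93 and 211), the filter on either line array (76 and 150) and the probe set by mean log2 (77 and 172) stayed within 1.5 times.

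Wild type positions among higher genes became 46 between and 11 above both after quantile normalization, 48 and 13 after cyclic loess, and 62 and 14 after centring, which also gave 52 near Line 6 and 12 near Line 3. Among lower genes, centring gave 15 near Line 6, 11 near Line 3, 23 between and 9 below both, and cyclic loess gave 18 near Line 6. Of 78 named genes past 2-fold, 50 stayed past it in every alternative that kept them. Lmln reversed to -0.43 with the probe set by mean log2. Medians ran from -0.93 to -0.67 for the pro-B and pre-B list, from -0.78 to -0.41 for secondary and tertiary granules and from 0.28 to 0.53 for immediate early genes. No paired analysis was possible because each line has 1 array. Intensities near background, where no detection calls exist, limit the dim genes.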

Other observations

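Some genes 2-fold apart lay next to each other in the order of kept genes along the RefSeq annotation (GRCm38.p6). Of 13 such neighbouring pairs, 11 ran in the same direction and 2 in opposite directions. Since 172 of the 251 called genes were lower in Line 3, unrelated pairs also often agree in direction. The count of pairs was not tested. Rag1 and Rag2 were both lower in Line 3, as were the lectin receptor genes Clec4d and Clec4e, Stfa2l1 and Stfa3, and the Schlafen genes Slfn1 and Slfn4, while Ccl3 and Ccl4 were both higher. These pairs were named after their values were seen, and several hold related sequences that probe sets may read together. Cyp11a1 and Sema7a were neighbours that differed in opposite directions. Ms4a1 (-1.54) and Ms4a2 (1.13), of 1 gene family, also went opposite ways between the lines.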
